A study of Mus musculus with 20 samples.

Results

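The messenger RNAs of 7 chemokine genes, Ccl3, Ccl4, Ccl5, Xcl1, Ccl1, Ccl9 and Cxcl10, were followed in mouse CD8 T cells. The genes were chosen by name from a table of 46603 gene identifiers, with earlier results of these data known. Their shares and medians beside those of all genes are therefore a description only. All 7 were among the 13432 genes with enough counts to be tested in the T cells. The cells were OT-I/Cas9 CD8 T cells, that is, killer T cells whose transgenic receptor recognises a peptide of ovalbumin and which carry the Cas9 nuclease, kept in medium with IL-2, IL-7, IL-15 and puromycin. Total RNA was sequenced from 12 T cell libraries, 2 for each of 6 groups. The first group was control-guide cells given thapsigargin (TG) at 50 ng/mL for 8 hours without activation. The second was control-guide cells given TG and activated for 24 hours on plates coated with anti-CD3 antibody from a solution of 2.5 µg/mL. The next groups were cells with a guide against Atp2a2 (Atp2a2 KO), given the vehicle dimethyl sulfoxide, with 1 group labelled resting and the other activated in the same way. The last groups were control-guide cells given vehicle, activated or resting. The labels do not give the age of the animals, the origin of the 2 libraries of a group, whether the KO cells were a clone or a pool, or where the 8 hours of TG lay within the 24 hours of activation. As no separate cultures or animals are named, the p-values below measure the spread between these libraries, which may be technical.

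Chemokines are small secreted proteins that attract cells carrying matching receptors, and an activated CD8 T cell uses them to call other immune cells to the place where it has met its antigen. Ccl3, Ccl4 and Ccl5 are inflammatory chemokines that attract monocytes and T cells, and Ccl3 and Ccl5 bind CCR1. Xcl1 attracts the dendritic cells that carry XCR1, Ccl1 binds CCR8, Ccl9 binds CCR1, and Cxcl10, an interferon-induced chemokine, binds CXCR3. Engagement of the T cell receptor empties calcium from the endoplasmic reticulum, calcium then enters across the cell membrane, and calcineurin activates the NFAT transcription factors. TG blocks the SERCA pumps, which return calcium to the endoplasmic reticulum, and Atp2a2 encodes the pump SERCA2. The title of the series asks how such a block bears on the activation of T cells.

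On GRCm38 in the GENCODE M21 annotation, the genes for Ccl3 (chr11:83647844-83649355, minus strand), Ccl4 (chr11:83662584-83664683, plus strand), Ccl5 (chr11:83525778-83530518, minus strand) and Ccl9 (chr11:83572919-83578636, minus strand) stand in a cluster. Ccl1 (chr11:82176657-82305690, minus strand) is annotated on the same chromosome with a span of 129034 bases that includes long transcripts. Xcl1 lies at chr1:164931644-164935527 and Cxcl10 at chr5:92346638-92348889, both on the minus strand. The span of Xcl1 overlaps that of Gm20743 on the opposite strand, with 98 exonic bases in common, and Cxcl10 lies within the span of Art3 on the opposite strand, with 133 exonic bases in common. These 2 neighbours had 62 and 5 counts over the 12 libraries. The strand setting of the counting is not stated, so reads of such pairs cannot be told apart by strand.

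The promoter sequences of the members in the RefSeq table for GRCm38.p6 are shown because calcium signals act on T cell genes through NFAT, whose core motif GGAAA is in capitals. Where the motif lies on the other strand, it reads TTTCC. Each runs from 250 to 11 bases before the transcription start, 5′ to 3′ on the strand of the gene. The windows are chr11:83649389-83649628 for Ccl3, chr1:164935533-164935772 for Xcl1, chr11:82179823-82180062 for Ccl1, chr11:83578647-83578886 for Ccl9 and chr5:92348900-92349139 for Cxcl10.
Ccl3: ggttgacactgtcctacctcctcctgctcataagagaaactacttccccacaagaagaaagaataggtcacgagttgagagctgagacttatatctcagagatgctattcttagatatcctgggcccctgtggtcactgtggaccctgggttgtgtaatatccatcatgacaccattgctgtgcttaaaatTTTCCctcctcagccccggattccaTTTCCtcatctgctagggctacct
Xcl1: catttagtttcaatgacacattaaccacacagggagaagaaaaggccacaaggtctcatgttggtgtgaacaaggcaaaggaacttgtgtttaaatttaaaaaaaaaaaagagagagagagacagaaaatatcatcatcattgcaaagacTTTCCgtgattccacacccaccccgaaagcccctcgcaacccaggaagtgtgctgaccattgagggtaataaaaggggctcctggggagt
Ccl1: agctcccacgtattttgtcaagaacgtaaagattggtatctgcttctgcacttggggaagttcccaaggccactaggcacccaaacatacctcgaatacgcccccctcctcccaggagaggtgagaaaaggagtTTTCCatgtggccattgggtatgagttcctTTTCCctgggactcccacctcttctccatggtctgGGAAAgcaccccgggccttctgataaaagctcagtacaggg
Ccl9: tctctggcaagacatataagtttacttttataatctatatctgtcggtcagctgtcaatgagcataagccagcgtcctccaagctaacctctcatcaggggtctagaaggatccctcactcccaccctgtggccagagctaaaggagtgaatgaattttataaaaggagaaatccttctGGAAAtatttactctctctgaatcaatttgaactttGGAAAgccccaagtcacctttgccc
Cxcl10: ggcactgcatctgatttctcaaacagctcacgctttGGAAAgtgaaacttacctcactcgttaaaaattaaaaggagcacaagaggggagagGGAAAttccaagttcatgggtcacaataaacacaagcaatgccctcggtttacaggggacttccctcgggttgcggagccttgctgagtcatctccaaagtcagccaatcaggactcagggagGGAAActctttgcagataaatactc

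The core motif GGAAA, counted on both strands, occurred 2 times in the Ccl3 window, 1 time in that of Xcl1, 3 times in that of Ccl1, 2 times in that of Ccl9 and 3 times in that of Cxcl10. So short a motif is common: 54.1% of the 32851 RefSeq windows of the same length held at least 1 match and 5.78% held 3 or more. The NF-kB pattern, GGG and CC with any 5 bases between them, occurred in the windows of Ccl1 (2 matches that overlap each other), Ccl9 (1 match that overlaps a GGAAA) and Cxcl10 (3 matches, of which 2 overlap each other and 1 overlaps a GGAAA), and in 44.2% of all windows. The AP-1 motif TGANTCA occurred 1 time each in the windows of Ccl9 and Cxcl10, and in 6.58% of all windows. Cxcl10 also held the interferon-response pattern, GAAA repeated after any 2 bases, which overlaps a GGAAA there and was found in 2.87% of all windows. The motifs CRE (TGACGTCA) and ATF4 and CHOP (TGATGNAA) were not found in these 5 windows, and were found in 1.44% and 3.37% of all windows. These matches are a description of letters and say nothing of binding.

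The T cell libraries held between 9985311 and 17462770 counts. All 10 CD8 T cell markers were detected in every group, with a summed level between 2707 and 6246 counts per 1000000 (CPM) per library. Of the markers of other cells, the 8 myeloid markers summed to at most 5.29 CPM outside the resting vehicle libraries, which had 18.5 and 19.5 CPM, mostly from Cd68, and Cybb was at 0 in every group. Of the 7 members, Ccl1, Ccl3, Ccl4, Ccl9 and Xcl1 were lowest in those same libraries, and the part of such cells in the results was not tested. Of 6 dendritic cell markers 4 were detected in each group, with sums between 38.7 and 41.9 CPM in activated and between 23 and 23.4 CPM in resting vehicle cells, and Clec9a and Siglech were at 0 in all groups. The sums were 25.65 CPM with TG alone, 33.15 to 39.78 CPM with TG in activated cells and 38.38 to 41.99 CPM in the KO libraries. With anti-CD3 in vehicle cells 2 of 4 tested were called higher, among them Zbtb46 (log2 change 5.55, SE 0.26), and 1 lower, against 35.3% and 39.1% of all genes. The 5 B cell markers summed to at most 5.15 CPM, and the 4 NK markers to at most 5.71 CPM. The 4 CD4 T cell markers summed to between 144.5 and 153 CPM with TG alone, 159 and 178 CPM with TG in activated cells, 61.5 and 65.8 CPM in the KO libraries labelled resting, 68.9 and 72.5 CPM in activated KO cells, 44.0 and 44.1 CPM in activated vehicle cells, and 63.0 and 68.5 CPM in resting vehicle cells. Cd4 itself was at most at 1.16 CPM. With TG in resting cells Cd40lg had 28.4 and 31.2 CPM against 0.965 and 0.739 CPM with vehicle (log2 change 5.10, SE 0.18), and Zbtb7b 116 and 121 CPM against 60.6 and 67.0 CPM (0.89, SE 0.061). The summed level of these markers was highest in the groups given TG, and its part in the results was not tested. Mitochondrial genes took between 1.30% and 1.77% of the counts. Atp2a2, the targeted gene, had 434 and 436 CPM in activated KO cells against 664 and 687 CPM in activated control cells. In the KO libraries labelled resting it had 455 and 452 CPM, against 225 and 226 CPM in resting control cells, so there it was higher. An edited transcript can still be counted and the position of the guide is not given in the sources used here. The KO libraries labelled resting also stood with the activated libraries: Ifng was at 7364 and 7414 CPM in them, against 9.01 and 9.79 CPM in resting control cells, and 79 genes (0.588% of those tested) separated activated from labelled resting KO cells. They are called the KO libraries labelled resting below, and no direction for the effect of the knockout in resting cells is drawn from them.

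TG alone raised the messenger RNA of 6 of the 7 chemokines in resting control cells, while Ccl5 did not pass the test. The rises were not alike: Xcl1 was 295.5-fold, Ccl1 226-fold, Ccl3 132-fold and Ccl4 38.6-fold higher than with vehicle, and Ccl9 and Cxcl10 remained below 2 CPM. The test was edgeR's quasi-likelihood test over all genes with Benjamini-Hochberg adjustment, and the threshold for a call was an adjusted p of 0.05. By this rule 69.2% of the genes tested were called between TG and vehicle in resting cells, 34.1% as higher and 35.2% as lower, so being called is in itself common here. A rise of 2-fold or more was called for 5 of the 7 members and for 11% of the genes tested. The median log2 change was 5.27 for the members and 0.01 for all genes. In bulk RNA, fewer cells with a transcript and less transcript per cell cannot be told apart, and this holds for every value below.

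**Figure D1:**
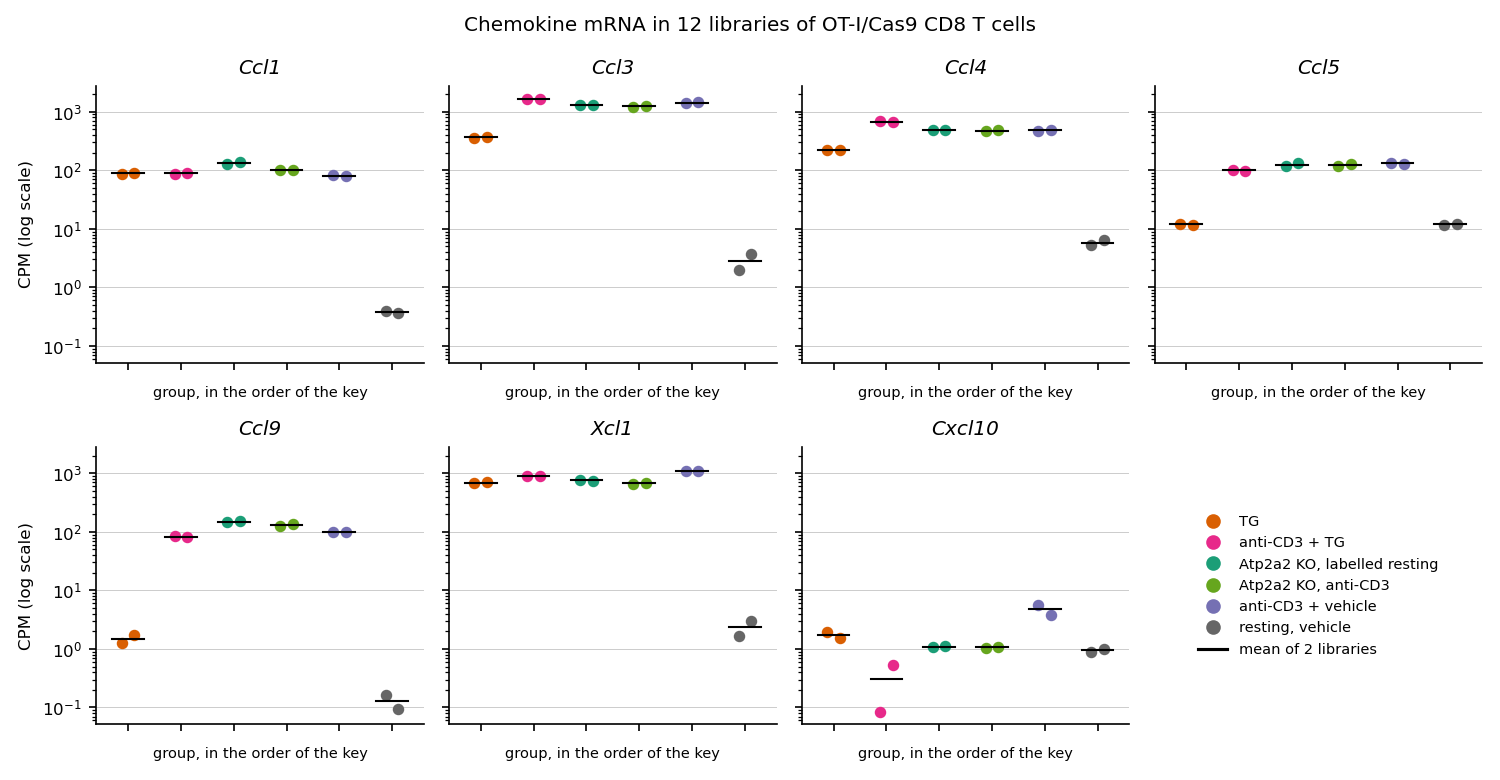
Level of each chemokine messenger RNA in CPM (log axis) in 12 libraries of OT-I/Cas9 CD8 T cells, with 1 point per library and a bar at the mean of the 2 libraries, in 6 groups in the order of the key. Resting vehicle libraries lie lowest for Ccl1, Ccl3, Ccl4, Ccl9 and Xcl1, TG alone lifts Xcl1 to 678 and 701 CPM, and Ccl5 lies at about 12 CPM in both resting groups of control cells.

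Ccl3, a ligand of CCR1, had 361 and 378 CPM with TG against 2.01 and 3.69 CPM with vehicle, a log2 change of 7.04 (SE 0.079, adjusted p = 1.1e-47). Ccl4, an inflammatory chemokine encoded beside it, had 224 and 221 CPM against 5.23 and 6.37 CPM, a log2 change of 5.27 (SE 0.071, adjusted p = 1.2e-52). Ccl5, also a ligand of CCR1, had 12.2 and 11.6 CPM with TG against 11.7 and 12.1 CPM with vehicle, and the groups overlapped (log2 change 0.00, SE 0.12, adjusted p = 0.99). Thus these 3 inflammatory chemokines did not move as a set. In resting vehicle cells Ccl5 had the highest level of the 3 per length of exon, with a mean of 40.9 transcripts per 1000000 (TPM) against 28.9 TPM for Ccl4 and 12.3 TPM for Ccl3.

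Xcl1, the ligand of XCR1, was at 678 and 701 CPM with TG, against 1.69 and 3.05 CPM with vehicle. This was the highest rise among the 7 members, with a log2 change of 8.21 (SE 0.075, adjusted p = 1.2e-59). Ccl1, the ligand of CCR8, was at 88.1 and 91.4 CPM against 0.402 and 0.369 CPM, the vehicle values resting on 9 counts over both libraries (log2 change 7.82, SE 0.15, adjusted p = 1.6e-45). For both genes the 2 groups did not overlap, in a comparison where 69.2% of all genes were called.

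The remaining members stayed low. Ccl9, a ligand of CCR1, had 1.28 and 1.72 CPM with TG and 0.161 and 0.0924 CPM with vehicle. With 37 counts against 3 over the 2 libraries of each group, the scaled ratio was 11.5, with a 95% counting interval of 3.65 to 58.4, and the adjusted p of the edgeR test was 7.3e-07. Cxcl10, the ligand of CXCR3, had 1.96 and 1.55 CPM with TG against 0.885 and 1.02 CPM with vehicle (log2 change 0.89, SE 0.39, adjusted p = 0.039). That call was lost with DESeq2 (adjusted p = 0.14), without a filter on low counts (0.053) and without TG replicate 1 (0.22), vehicle replicate 1 (0.16) or vehicle replicate 2 (0.075).

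Activation through anti-CD3 in control cells with vehicle raised all 7 members, each by 2-fold or more. Over all genes 74.4% were called in this comparison, 35.3% as higher, 39.1% as lower, and 12.2% as higher by 2-fold or more. The members' median log2 change was 7.68, against -0.04 for all genes. Ccl3 reached 1403 and 1446 CPM (log2 change 8.99, SE 0.073, adjusted p = 4.5e-53) and Xcl1 1109 and 1115 CPM (8.90, SE 0.073, adjusted p = 5.9e-62), against the resting vehicle levels given above. Ccl4 reached 472 and 497 CPM (log2 change 6.39, SE 0.065) and Ccl1 83.1 and 79.7 CPM (7.68, SE 0.15).

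Ccl5 and Ccl9 behaved differently under anti-CD3 than under TG alone. Ccl5, known in T cells as a gene of late activation, had 133 and 131 CPM in activated cells against 11.7 and 12.1 CPM in resting cells, a log2 change of 3.47 (SE 0.074, adjusted p = 5.6e-43). Ccl9 had 98.9 and 98.0 CPM against 0.161 and 0.0924 CPM, a scaled ratio of 764 with a 95% counting interval of 261 to 3710. Cxcl10 had 5.597 and 3.861 CPM against 0.885 and 1.02 CPM (log2 change 2.34, SE 0.3, adjusted p = 1e-09). For each member the activated libraries lay above the resting ones, in a comparison where 74.4% of all genes were called.

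Setting TG alone directly against anti-CD3 alone placed the members along a wide scale. Of the 7, 1 was called higher with TG and 6 lower, where 38.4% of all genes were higher and 36.6% lower (75% called). Ccl1 stood at 110% of its anti-CD3 level (log2 change 0.14, SE 0.05, adjusted p = 0.011), Xcl1 at 62.0% (-0.69, SE 0.036) and Ccl4 at 46.0% (-1.12, SE 0.038). Ccl3 stood at 26.0% (log2 change -1.95, SE 0.039), Cxcl10 at 36.8% (-1.44, SE 0.26), Ccl5 at 9.04% (-3.47, SE 0.072) and Ccl9 at 1.52% (-6.04, SE 0.12), all with adjusted p of 1.7e-06 or less. The call for Ccl1 was lost with DESeq2 (adjusted p = 0.13), without a filter (0.67) and without TG replicate 1 (0.097), TG replicate 2 (0.35) or activated vehicle replicate 2 (0.11). The times also differ, with 8 hours of TG against 24 hours of anti-CD3.

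**Figure D2:**
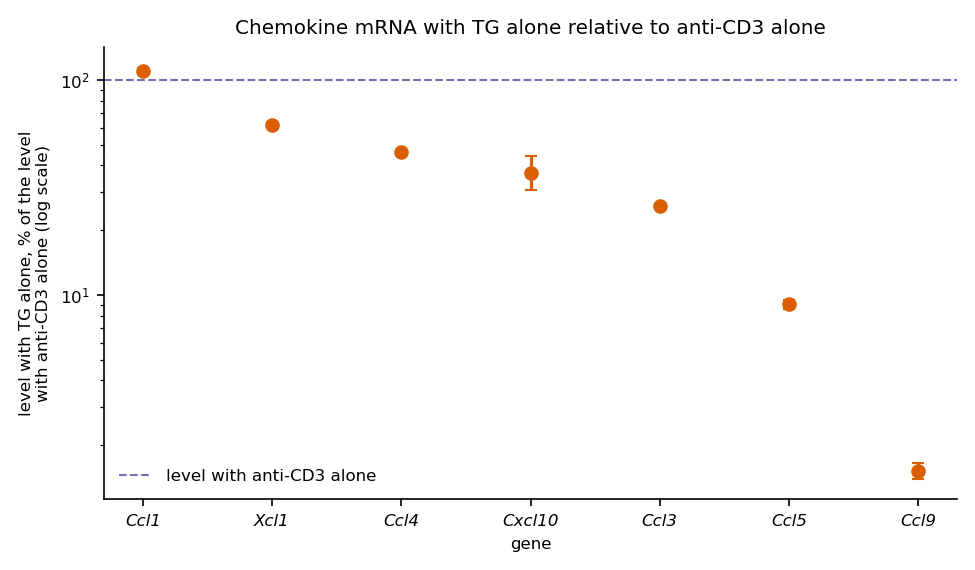
Level with TG alone as a percentage of the level with anti-CD3 alone in control cells (log axis), 1 point per gene from the edgeR fit, with bars of 1 SE on the log2 scale and a dashed line at the anti-CD3 level. The genes run from Ccl1 at 110% down to Ccl9 at 1.52%.

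In activated control cells the log2 changes with TG were nearer to 0 than in resting cells for Ccl1, Ccl3, Ccl4, Ccl9 and Xcl1, and further from 0 for Ccl5 and Cxcl10. Here 3 members were called higher and 4 lower, against 32.6% and 32.4% of all genes (65% called), and the members' median log2 change was -0.25. Ccl4 had 693 and 673 CPM with TG against 472 and 497 CPM with vehicle (log2 change 0.50, SE 0.036, adjusted p = 1.9e-18), and Ccl3 had 1683 and 1663 CPM against 1403 and 1446 CPM (0.23, SE 0.037, adjusted p = 3.7e-07). The activated TG libraries thus held the highest levels of Ccl3 and Ccl4 among the 12. Ccl1 had 85.7 and 91.4 CPM with TG against 83.1 and 79.7 CPM with vehicle (log2 change 0.12, adjusted p = 0.031). This small difference did not pass with relative log expression scaling (adjusted p = 0.069), DESeq2 (0.24), no filter (0.68), or without TG replicate 2 (0.26) or vehicle replicate 2 (0.18).

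Ccl5, Ccl9 and Xcl1 fell with TG in activated cells. Ccl5 had 101 and 98.2 CPM with TG against 133 and 131 CPM with vehicle (log2 change -0.40, SE 0.049, adjusted p = 1.5e-10). Ccl9 had 83.5 and 82.6 CPM against 98.9 and 98.0 CPM (-0.25, SE 0.052, adjusted p = 3.7e-05), and Xcl1 had 913 and 906 CPM against 1109 and 1115 CPM (-0.29, SE 0.036, adjusted p = 3.5e-10). Cxcl10 fell most, with 0.0852 and 0.536 CPM against 5.597 and 3.861 CPM, a log2 change of -3.86 (SE 0.38, adjusted p = 2.7e-13). The TG values of Cxcl10 rest on 1 and 7 counts, and the log2 change was -3.13 without TG replicate 1 and -5.65 without TG replicate 2.

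**Figure D3:**
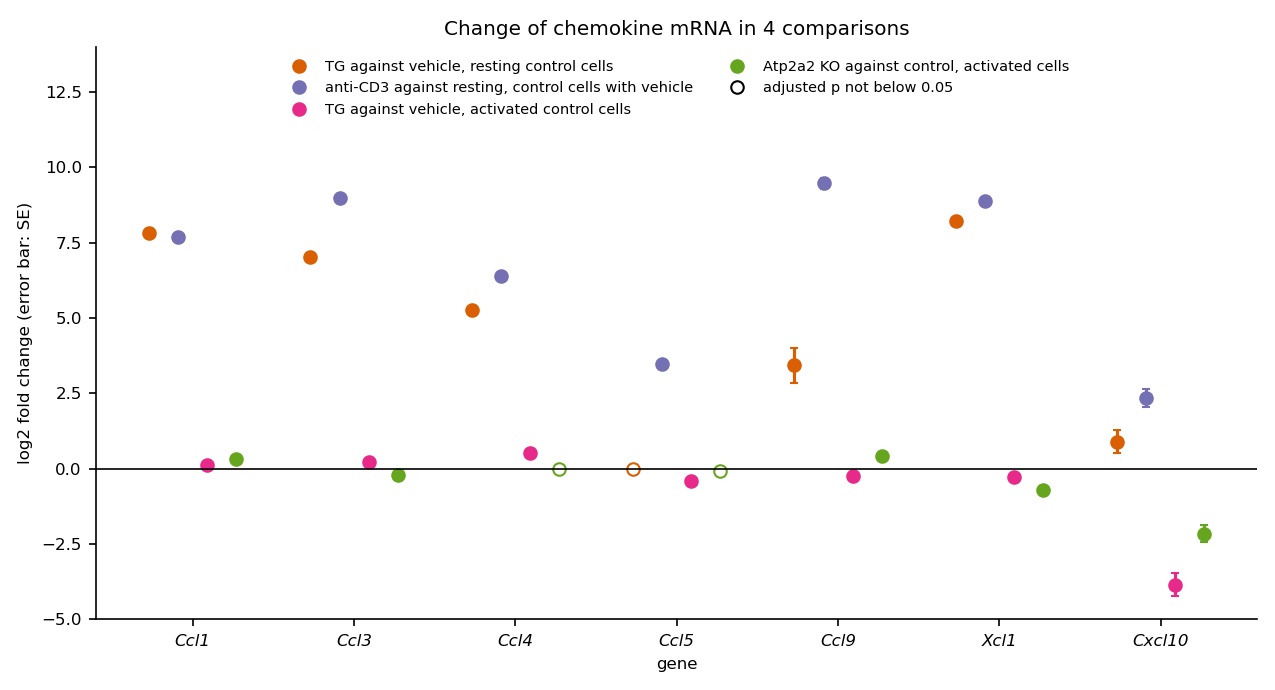
Log2 fold change of each chemokine gene in 4 comparisons from the edgeR fit of 12 libraries, with bars of 1 SE where they exceed the point, and open points where the adjusted p was not below 0.05. The changes with TG alone and with anti-CD3 lie far above 0 for Ccl1, Ccl3, Ccl4 and Xcl1, Ccl5 with TG alone lies at 0.00, and Cxcl10 lies at -3.86 with TG in activated cells.

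The effect of TG in activated cells minus its effect in resting cells was tested as an interaction and was called lower for all 7 members, where 51.9% of all genes were called, 26.7% as higher and 25.2% as lower. The log2 difference was -8.50 (SE 0.089) for Xcl1, -7.70 (SE 0.17) for Ccl1, -6.81 (SE 0.094) for Ccl3 and -4.78 (SE 0.085) for Ccl4. It was -4.75 (SE 0.58) for Cxcl10, -3.67 (SE 0.58, with 3 counts in the resting vehicle libraries) for Ccl9 and -0.40 (SE 0.13, adjusted p = 0.0073) for Ccl5. Without TG replicate 1 or TG replicate 2 of the activated cells, the difference for Cxcl10 was -4.03 or -6.56.

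Read the other way, anti-CD3 on top of TG left Ccl1 within the spread of the libraries (85.7 and 91.4 CPM against 88.1 and 91.4 CPM with TG alone, adjusted p = 0.79). In this comparison 5 members were called higher and 1 lower, against 32% and 31.9% of all genes (63.8% called). Xcl1 rose by 0.40 on the log2 scale (SE 0.036), Ccl4 by 1.62 (SE 0.038), Ccl3 by 2.18 (SE 0.039), Ccl5 by 3.06 (SE 0.077) and Ccl9 by 5.80 (SE 0.12). Cxcl10 fell (log2 change -2.42, SE 0.49, adjusted p = 2.6e-05), with a log2 change of -1.68 without activated TG replicate 1 and -4.21 without activated TG replicate 2.

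Knockout of Atp2a2 shifted the chemokines of activated cells modestly, Cxcl10 apart. In activated KO against activated control cells 2 members were called higher and 3 lower, where 17.5% and 19.6% of all genes were (37.1% called). Xcl1 had 667 and 695 CPM in KO cells against 1109 and 1115 CPM in control cells (log2 change -0.71, SE 0.036, adjusted p = 2.3e-23), and Ccl3 had 1213 and 1262 CPM against 1403 and 1446 CPM (-0.20, SE 0.037, adjusted p = 1.5e-05). Ccl9 had 124 and 139 CPM against 98.9 and 98.0 CPM (0.41, SE 0.047, adjusted p = 2.6e-10), and Ccl1 had 101 CPM in both libraries against 83.1 and 79.7 CPM (0.31, SE 0.048, adjusted p = 2.7e-07). Cxcl10 had 1.05 and 1.08 CPM against 5.597 and 3.861 CPM (-2.17, SE 0.28, adjusted p = 3.8e-09).

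Ccl4 and Ccl5 did not pass the test between activated KO and activated control cells. Ccl4 had 466 and 485 CPM in KO cells against 472 and 497 CPM in control cells (log2 change -0.03, SE 0.036, adjusted p = 0.6). Ccl5 had 119 and 130 CPM against 133 and 131 CPM (-0.09, SE 0.046, adjusted p = 0.12). Without KO replicate 2, and likewise without a filter on low counts, Ccl5 passed, with an adjusted p of 0.023 each time.

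TG in control cells and the knockout, both in activated cells, gave different levels for every member. Relative to activated KO cells, activated TG cells had more Ccl3 (log2 change 0.44, SE 0.037), Ccl4 (0.52, SE 0.036) and Xcl1 (0.42, SE 0.036). They had less Ccl1 (-0.19, SE 0.049, adjusted p = 0.00052), Ccl5 (-0.31, SE 0.049), Ccl9 (-0.65, SE 0.05) and Cxcl10 (-1.69, SE 0.54, adjusted p = 0.0059). Of all genes 60.5% were called in this comparison, 30.5% as higher and 30% as lower. The Cxcl10 difference did not pass without activated TG replicate 1 (log2 change -0.97, adjusted p = 0.15) and was -3.50 without replicate 2.

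The KO libraries labelled resting held chemokine levels close to those of activated cells. Against resting control cells 6 members were called higher, where 33.7% of all genes were and 35.9% were lower (69.6% called), with Ccl3 at 1290 and 1288 CPM, Xcl1 at 767 and 745 CPM, Ccl1 at 130.7 and 136.5 CPM and Ccl5 at 117 and 131 CPM. Cxcl10, at 1.06 and 1.12 CPM against 0.885 and 1.02 CPM, did not pass (adjusted p = 0.72). Between activated KO cells and the KO libraries labelled resting, 2 members were called, both lower in the activated ones, where 0.119% of all genes were and 0.469% were higher. Ccl1 was at 101 CPM in both activated KO libraries against 130.7 and 136.5 CPM (log2 change -0.40, SE 0.047, adjusted p = 3.2e-07), and Xcl1 at 667 and 695 CPM against 767 and 745 CPM (-0.15, SE 0.037, adjusted p = 0.03). The call for Xcl1 was lost with DESeq2 (adjusted p = 0.091), in a fit of these 2 groups alone (0.077) and without KO labelled resting replicate 1 (0.35) or 2 (0.13) or activated KO replicate 1 (0.44). With these libraries left out of the fit, every call of the members in the other comparisons was the same.

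The order of the 6 groups differed between members, though neighbours in an order did not always differ. Ccl3 ran from activated TG cells (mean 1673 ± 15 CPM, SD, n = 2) through activated vehicle cells, both KO groups and TG alone to resting vehicle cells, and the KO groups did not differ (adjusted p = 0.59). Xcl1 was highest in activated vehicle cells, and TG alone (689 ± 16 CPM, SD, n = 2) did not differ from activated KO cells (681 ± 20 CPM, SD, n = 2; adjusted p = 0.69 by edgeR). Ccl1 was highest in the KO libraries labelled resting and Ccl9 in both KO groups, whose difference for Ccl9 did not pass (adjusted p = 0.052). For Ccl5, activated vehicle cells did not differ from activated KO cells, nor these from the KO libraries labelled resting, nor the resting groups of control cells from each other. For Cxcl10, no neighbours differed along the run of TG alone, the KO libraries labelled resting, activated KO cells and resting vehicle cells, although TG alone and resting vehicle cells did (adjusted p = 0.039, above).

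Per length of exon, levels can be compared between genes, here in TPM computed from the counts. With TG alone Xcl1 was the most abundant of the 7 at 4953 TPM, followed by Ccl3 at 1813 and Ccl4 at 1269 TPM. After anti-CD3 with vehicle, Xcl1 (6940 TPM) and Ccl3 (6069 TPM) stood close together. The ratio of Xcl1 to Ccl3 in TPM was 2.75 and 2.72 with TG alone, 0.794 and 0.798 with TG in activated cells, 0.806 and 0.807 in activated KO cells and 1.16 and 1.13 in activated vehicle cells. The ratio of Ccl4 to Ccl5 in TPM was 26.8 and 27.7 with TG alone, 5.16 and 5.53 in activated vehicle cells, and 0.648 and 0.766 in resting vehicle cells. Ccl1 was at 142 TPM with TG alone and 112 TPM in activated vehicle cells by its whole exonic length of 2369 bases, or 656 and 517 TPM by the 514 bases of its principal transcript. Together the 7 genes took 0.145% and 0.148% of all counts with TG alone, 0.361% and 0.357% with TG in activated cells, 0.325% and 0.329% in activated vehicle cells, and 0.00215% and 0.00262% in resting vehicle cells.

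Across the 12 libraries, which share 6 groups, the members were compared by the correlation of their log2 CPM, given as a description. The values among Ccl1, Ccl3, Ccl4 and Xcl1 lay between 0.972 and 0.998. Each of these genes was far lower in the resting vehicle libraries than in all others, and such a gap in 1 group can by itself give a high r. This bears also on the genes given below as most like them. Apart from that group they differed: from TG alone to TG in activated cells the log2 change was -0.02 (SE 0.051) for Ccl1 and 2.18 (SE 0.039) for Ccl3. Ccl3 and Ccl4 had a Pearson r of 0.998, Xcl1 and Ccl1 of 0.988, and Ccl5 and Ccl9 of 0.985, while Cxcl10 had an r of at most 0.191 with the others. Among 9303 genes, the gene most like Ccl1 was Sema7a (r = 0.9979), a membrane-bound semaphorin, with 245 CPM on average with TG alone and 23.2 CPM in resting vehicle cells. For Xcl1 it was Nr4a1 (r = 0.9980), an early gene of receptor signalling, at 96.3 CPM with TG alone and 3.26 CPM in resting vehicle cells. The genes most like Ccl4 after Ccl3 were Zeb2 (r = 0.9979) and Ifng (r = 0.9967), and those most like Ccl3 after Ccl4 were P3h1 (r = 0.9963) and Zeb2 (r = 0.9959). For Ccl5 they were Lum (0.9961), Vcp (0.9959) and Stat5a (0.9958), and for Ccl9 Calr (0.9978), Ncs1 (0.9964) and Nsf (0.9905). Stat5a, a transcription factor of cytokine receptors, had 41.2 CPM with TG alone, 390 CPM in activated vehicle cells and 44.1 CPM in resting vehicle cells. The nearest genes to Cxcl10, led by Atrx (r = 0.9174), were less like it.

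Of 31 other chemokine ligand genes 5 had enough counts to be tested, and none reached 5 CPM in any of the 12 libraries. The 5 were Ccl7, Ccl22, Ccl25, Ccl27a and Cxcl16, named here after their values were seen. Of the 5, 3 were called higher with anti-CD3, against 35.3% of all genes. Ccl22 had 0 CPM in both resting vehicle libraries and 1.75 and 1.36 CPM in activated vehicle libraries. Such a gene passes the filter only through groups where it is high, so that share is no result about these genes. With TG in resting cells 0 of the 5 were called higher and 0 lower, against 34.1% and 35.2% of all genes. Ccl25 was the highest of them with TG alone, at 3.99 and 3.44 CPM against 2.98 and 2.59 CPM with vehicle. Among the genes at 0 in all 12 libraries were Ccl2, Cxcl1 and Cxcl12. The 31 genes together summed to 8.01 to 8.26 CPM with TG in activated cells and to 3.14 to 4.02 CPM in resting vehicle cells.

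Of 23 chemokine receptor genes 12 were tested, and with TG in resting cells 2 were called higher and 8 lower, against 34.1% and 35.2% of all genes (median log2 change -1.79, against 0.01 for all genes). Ccr4, a receptor for Ccl17 and Ccl22, had 2.18 and 2.07 CPM with TG against 52.4 and 50.8 CPM with vehicle (log2 change -4.60, SE 0.12). Ccr2, a monocyte and effector T cell receptor, had 66.04 and 58.1 CPM against 759 and 720 CPM (-3.57, SE 0.046). Cxcr3, the receptor for Cxcl10, had 4.96 and 6.37 CPM against 49.1 and 46.7 CPM (-3.09, SE 0.11), and Cxcr6 64.1 and 62.1 CPM against 410 and 375 CPM (-2.64, SE 0.049).

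**Figure D4:**
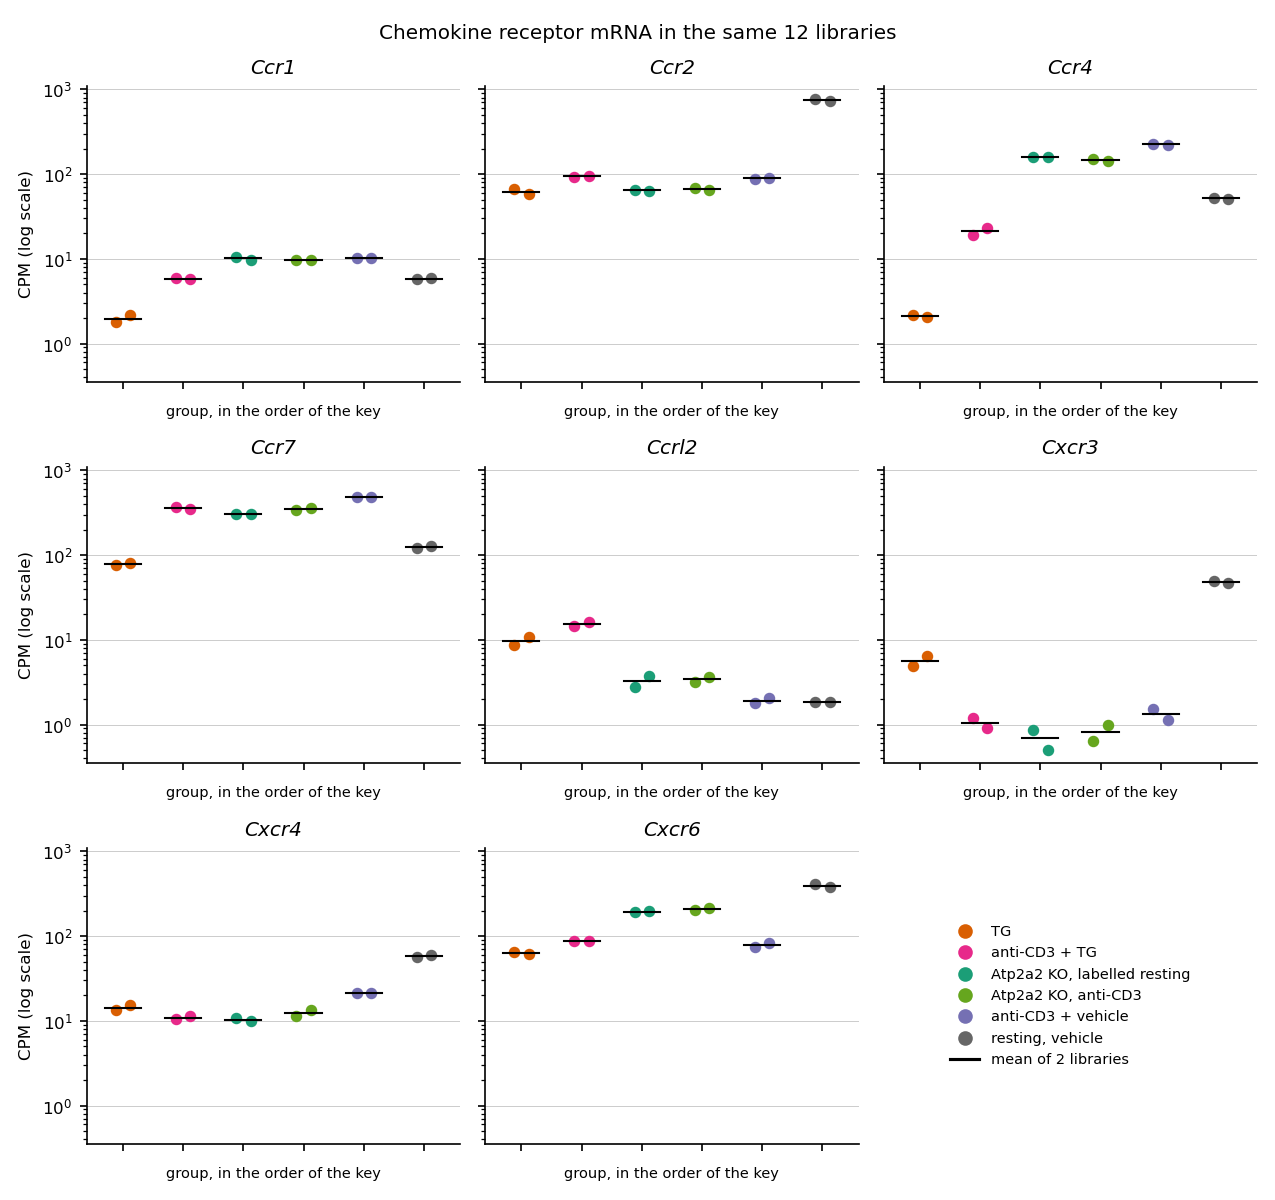
Level of 8 chemokine receptor genes in CPM (log axis) in the same 12 libraries, with 1 point per library, a bar at the mean of the 2 libraries and the groups in the order of the key. Ccr2, Cxcr3, Cxcr4 and Cxcr6 are highest in resting vehicle cells, and Ccr4 lies at 2.18 and 2.07 CPM with TG alone.

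Anti-CD3 lowered the same receptors in part and raised others. In activated against resting vehicle cells 4 receptors were called higher and 5 lower, against 35.3% and 39.1% of all genes (median log2 change 0.17, against -0.04 for all genes): Cxcr3 fell to 1.52 and 1.14 CPM (log2 change -5.14, SE 0.15), Ccr2 to 88.3 and 89.5 CPM (-3.06, SE 0.043) and Cxcr6 to 75.0 and 81.8 CPM (-2.33, SE 0.046). Ccr4 rose, with 228 and 223 CPM in activated cells against 52.4 and 50.8 CPM (2.13, SE 0.051). Ccr7, the homing receptor for lymph nodes, differed between the stimuli, at 75.7 and 80.5 CPM with TG alone against 482 and 489 CPM with anti-CD3 alone (log2 change -2.64, SE 0.044, adjusted p = 7.2e-48). In activated cells TG lowered Ccr4 to 19.01 and 23.4 CPM, against 228 and 223 CPM with vehicle (-3.40, SE 0.059), and raised Ccrl2, an atypical receptor, to 14.7 and 16.4 CPM, against 1.81 and 2.04 CPM (3.02, SE 0.17). Over the list TG in activated cells gave 4 higher and 6 lower, against 32.6% and 32.4% of all genes. The interaction gave 9 higher and 1 lower, against 26.7% and 25.2% of all genes.

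In activated KO cells 3 receptors were called higher and 5 lower than in activated control cells, where 17.5% and 19.6% of all genes were (median log2 change -0.23, against 0.00 for all genes). Cxcr6 had 204 and 217 CPM in KO cells against 75.0 and 81.8 CPM in control cells (log2 change 1.42, SE 0.047), and Cxcr4 had 11.4 and 13.3 CPM against 21.3 and 21.2 CPM (-0.80, SE 0.099). Ccr8, the receptor for Ccl1, named here after its values were seen, had 4.09 and 4.89 CPM in KO cells against 0.875 and 1.29 CPM in control cells (2.06, SE 0.26, adjusted p = 2.6e-09). It was also higher with TG in activated cells, at 4.09 and 3.75 CPM against the same control libraries (1.88, SE 0.27, adjusted p = 2.7e-08). Xcr1, the receptor for Xcl1, did not exceed 0.117 CPM in any T cell library and was not tested.

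Genes that carry or dampen receptor signals were all detected (17 of 17 tested). With TG in resting cells 5 rose and 9 fell, against 34.1% and 35.2% of all genes (median log2 change -0.68, against 0.01 for all genes). The risers included the regulators of G protein signalling Rgs16, at 330 and 318 CPM with TG against 26.9 and 28.3 CPM with vehicle (log2 change 3.56, SE 0.05), and Rgs1, at 458 and 455 CPM against 72.5 and 72.1 CPM (2.66, SE 0.042). Grk5, a kinase that desensitises receptors, rose by 2.78 (SE 0.14), and Rgs2 by 2.42 (SE 0.17). Anti-CD3 gave 6 higher and 10 lower, against 35.3% and 39.1% of all genes, with Rgs2 (3.86, SE 0.13) and Rgs16 (2.75, SE 0.052) again among the risers. In activated KO cells 8 were higher and 2 lower than in control cells, against 17.5% and 19.6% of all genes, with Rgs16 at 429 and 441 CPM against 186 and 186 CPM (1.23, SE 0.037).

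Transcription factors and kinases known to act on chemokine promoters were also all tested (26 of 26). With TG in resting cells 14 rose and 10 fell, against 34.1% and 35.2% of all genes (median log2 change 0.50, against 0.01 for all genes). With anti-CD3 15 rose and 9 fell, against 35.3% and 39.1% of all genes (0.58, against -0.04). Egr2, an early gene downstream of NFAT, had 109 and 111 CPM with TG against 1.93 and 1.94 CPM with vehicle (log2 change 5.82, SE 0.11). Irf4, a factor of T cell activation, had 1274 and 1265 CPM against 241 and 234 CPM (2.42, SE 0.036), and Relb, an NF-kB subunit, rose by 2.22 (SE 0.064). Nfatc2, an NFAT factor, had 38.3 and 32.6 CPM with TG against 269 and 285 CPM with vehicle (-2.96, SE 0.055). Set against anti-CD3 alone, TG alone gave more Nfatc1 (1.84, SE 0.041) and less Junb (-2.62, SE 0.22), Fosl1 (-2.40, SE 0.17) and Nfatc2 (-1.80, SE 0.058).

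Among 8 listed factors that act on the stability of cytokine messages, 3 rose and 4 fell with TG in resting cells. Of all genes 34.1% rose and 35.2% fell, so for the rises the share of the list was near that of all genes. Zfp36l1, which promotes decay of such messages, had 243 and 244 CPM with TG against 65.6 and 64.8 CPM with vehicle (log2 change 1.90, SE 0.046). Its relatives Zfp36l2 (-1.60, SE 0.072) and Zfp36 (-1.30, SE 0.063) fell. In activated cells TG also raised Zfp36l1 (1.16, SE 0.052) and lowered Zfp36l2 (-1.44, SE 0.093).

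Other readouts also changed, not always in step with the chemokines, and their part in the result was not tested. Of 10 activation markers 7 rose and 2 fell with TG in resting cells, against 34.1% and 35.2% of all genes, and 9 rose with anti-CD3, against 35.3%. The summed level of the 10 was nevertheless lower with TG alone, at 7898 and 7903 CPM, than in resting vehicle cells, at 12900 and 13430 CPM. Such a sum follows the most abundant of the 10 genes and is no measure of activation. It was lower although Egr2 (log2 change 5.82, SE 0.11), Nr4a1 (4.89, SE 0.099) and Tnfrsf4 (2.91, SE 0.067) rose. With anti-CD3 and vehicle the sum was 34310 and 35180 CPM. Ifng, the effector cytokine, had 1481 and 1502 CPM with TG alone against 9.01 and 9.79 CPM with vehicle (log2 change 7.31, SE 0.051). Il2ra, the alpha chain of the IL-2 receptor, named here after its values were seen, had 1313 and 1323 CPM against 1343 and 1295 CPM (log2 change 0.00, SE 0.031, adjusted p = 0.98). All 8 genes of the unfolded protein response rose with TG in resting cells and in activated cells, and in activated KO cells, against 34.1%, 32.6% and 17.5% of all genes. Their summed level was 3352 and 3477 CPM with TG alone, against 1346 and 1359 CPM in resting vehicle cells. With anti-CD3 in vehicle cells 4 of these genes were called higher and 3 lower, against 35.3% and 39.1% of all genes. The median log2 change of the list was then 0.20, against -0.04 for all genes. Traces of melanoma markers summed to at most 7.34 CPM in the control T cell libraries and 1.29 CPM in the KO libraries.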

How the data were processed

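The 12 T cell libraries and 8 melanoma libraries come from 1 deposited table of raw read counts per Ensembl gene. Per the submitters' processing notes, the authors used STAR 2.6.0c, HTSeq and the mm10 build (GRCm38); the strand setting and annotation release are not given in the sources used here. Symbols came from GENCODE M21, which named 46005 of 46603 identifiers, and the 598 unnamed ones held 0.0759% of counts.

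The T cell libraries were fitted together with edgeR 4.0.16 (R 4.3.3), using its default filter on low counts, TMM scaling and robust quasi-likelihood tests, with Benjamini-Hochberg adjustment over all 13432 genes of each of 10 comparisons. CPM values of the T cell libraries are TMM-scaled, and those of the melanoma libraries are plain counts over the library total. The SE was taken as the size of the log2 change over the root of the F statistic. Counting intervals (95%) are exact and cover counting error only. Procedures were tested on simulated data. Genes named for a change came from the 4 largest called changes of each list and comparison, at 10 CPM or more in the higher group. The exceptions are said to be named after their values were seen. The 3 genes most like each member were those with the highest Pearson r of log2(CPM + 0.5). The members and lists were chosen with earlier results of these data known.

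Alternatives were other scaling, DESeq2 1.42.0, other filters, groups fitted alone, a replicate block, and leaving out each library or the KO libraries labelled resting. Replicate numbers were checked for pairing: over 15 pairs of groups the correlation of deviations lay between -0.1063 and 0.1045, with 2 above 0.1. No strong pairing was seen, but with 1 difference per group this check cannot exclude a shared culture or day. Every pair of replicates differed by more than sampling noise, with a chi-square per degree of freedom between 1.43 and 3.04. The coefficient of variation common to all genes in the edgeR fit was 2.80%, and this spread may be technical. Melanoma libraries entered no comparison.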

Additional observations from a re-analysis of the deposited data

Results flagged for a closer look

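The effect of TG differed between activated and resting control cells for each of the 7 chemokines by the interaction test in edgeR. The log2 difference, activated minus resting, was -7.70 for Ccl1, -6.81 for Ccl3, -4.78 for Ccl4, -0.40 for Ccl5, -3.67 for Ccl9, -8.50 for Xcl1 and -4.75 for Cxcl10. In activated cells TG moved Ccl1, Ccl3 and Ccl4 up and the other 4 down, and the call for Ccl1 was lost under several alternatives given above. In resting cells none was called lower. The resting vehicle libraries held only 3 counts for Ccl9, 9 for Ccl1 and 22 for Cxcl10, which left little room for such a call in these genes.

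In the melanoma libraries, which enter no comparison above, Ccl5 and Cxcl10 were present with TG above every vehicle library. Ccl5 had 4.407 and 3.932 CPM with TG in control melanoma cells and 9.559 and 7.576 CPM in Ccdc101 KO melanoma cells, against at most 0.8276 CPM with vehicle. Cxcl10 had 19.41 and 19.48 CPM with TG in control and 36.94 and 35.31 CPM in Ccdc101 KO cells, against 6.542 and 6.652 CPM with vehicle in control and 11.49 and 12.14 CPM in Ccdc101 KO cells. These melanoma levels are not TMM-scaled, so they are not on the scale of the T cell CPM, and they were not tested.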

How the results depend on the processing

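No log2 change of a member reversed under the alternatives where either fit gave a call. Where neither did, direction was not compared. Of 774 recomputed log2 changes of the members, 749 kept their side of the threshold, 22 lost the call and 3 gained it. The calls concerned were those given beside Cxcl10, Ccl1, Ccl5 and Xcl1 above, and Ccl9 between activated KO cells and the KO libraries labelled resting, called without activated KO replicate 2 (log2 change -0.26, adjusted p = 0.0023). Cxcl10 was not tested under a filter of 5 CPM. Between activated KO and activated control cells DESeq2 called 3082 genes, against 4986 with edgeR. Between activated KO cells and the KO libraries labelled resting edgeR called 79 genes, DESeq2 22 and edgeR without a filter 184, and leaving out 1 library gave 15 to 191. In that comparison 79.75% of edgeR's calls were higher, 90.91% with DESeq2 and 68.42% without KO labelled resting replicate 1. With the replicate block, 9264 genes were called for TG in resting cells against 9300 without it, 65 against 79 between the KO groups, and the call for Xcl1 between the KO groups was lost (adjusted p = 0.052); no other call of a member changed. Without the KO libraries labelled resting, 9283 genes were called for TG in resting cells and 4947 for the knockout in activated cells. With 2 libraries a group, the spread is shared over all groups, and values of Cxcl10 and of Ccl9 in resting vehicle cells rest on few counts.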
